A study of Mus musculus with 2 samples.

Results

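The 8 genes described here carry salt and water across epithelia: the chloride channels Cftr and Ano1, the sodium channel subunits Scnn1a, Scnn1b and Scnn1g, the cotransporter Slc12a2, the pump subunit Atp1b1 and the carbonic anhydrase Car2. They were taken by symbol from the 32285 genes that both matrices list, and all 8 were found. Their levels were read in secretory luminal, proximal luminal and basal epithelial cells of the mouse prostate.

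The study profiled single cells of wild-type male C57BL6 mice by droplet sequencing of transcript 3′ ends, in 1 library of the ventral prostate lobes and 1 of the proximal and periurethral region. The number and age of the mice in a library are not given in the sources used here. Tissue was dissociated with papain and then TrypLE, no marker sort was named, and 5000 cells were targeted per library. The ventral library was made with kit version 2 and the other, called the proximal library from here on, with version 3, so region and kit cannot be told apart. With 1 library per group there is no test: each value carries an exact 95% interval that covers counting error only and says nothing of the spread between mice.

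The ventral library held 1988 kept cells and the proximal library 3705, with a median of 25759 and 15260 unique molecular identifiers (UMIs, counted transcripts) per kept cell, and the libraries shared 0 barcode sequences. Clusters were named from marker genes, so each class is only like the type it is named for. The ventral library gave 1684 secretory luminal-like, 88 proximal luminal-like and 142 basal-like cells, and the proximal library 706, 998 and 911. In the ventral library 10 of 12 secretory, 6 of 7 proximal luminal and 6 of 7 basal markers were found in at least 25% of the cells named for them, and in the proximal library 11 of 12, 7 of 7 and 7 of 7. The 8 genes and the 77 other transport genes used here took no part in the choice of genes for clustering. A cluster of 375 proximal cells was left unnamed because haemoglobin genes led it, although all 7 proximal luminal markers were found there.

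As background, a fluid-secreting epithelial cell takes up chloride through a basolateral cotransporter driven by the sodium gradient that the sodium-potassium pump keeps up, and lets it out through apical chloride channels, with sodium and water following. An absorbing cell instead takes sodium in through the apical epithelial sodium channel and passes it on through the same pump. Carbonic anhydrase supplies the bicarbonate and protons that exchangers trade for chloride and sodium. The prostate adds fluid to semen, and its proximal ducts join the urethra.

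Scnn1g and Scnn1b are neighbours in the genome. In mm10, the build in the submitters' processing notes, Scnn1g lies at chr7:121734479-121768475 and Scnn1b at chr7:121865038-121918514, both on the plus strand and 96.6 kb apart. Their upstream windows are shown because the pair is close in the genome and was alike in some comparisons and not in others. In the proximal library their basal over proximal luminal ratios were 3.79 and 2.98, and their basal over secretory ratios 20.6 and 1.19. Each window is the 250 bases before the RefSeq start in GRCm38.p6, written 5′ to 3′ on the plus strand, with capitals for a GC box (GGGCGG or its reverse complement CCGCCC).
Scnn1g, chr7:121734229-121734478: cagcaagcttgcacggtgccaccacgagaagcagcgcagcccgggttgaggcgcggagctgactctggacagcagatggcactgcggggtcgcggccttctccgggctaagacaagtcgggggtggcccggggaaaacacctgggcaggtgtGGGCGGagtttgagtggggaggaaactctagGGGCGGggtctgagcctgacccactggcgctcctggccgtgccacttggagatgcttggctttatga
Scnn1b, chr7:121864788-121865037: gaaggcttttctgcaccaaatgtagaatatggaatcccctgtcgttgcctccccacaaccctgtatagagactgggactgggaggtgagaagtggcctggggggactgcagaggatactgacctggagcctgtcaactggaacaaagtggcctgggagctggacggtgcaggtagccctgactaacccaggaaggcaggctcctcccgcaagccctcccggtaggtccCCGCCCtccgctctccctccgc
The Scnn1g window held 2 GC boxes, 16 CpG sites and 65.2% G and C, and the Scnn1b window 1 GC box, 7 CpG sites and 60.8% G and C. Of 32851 RefSeq windows of the same length, 32.7% held a GC box. Windows were found for 5 of the 8 genes, and those of Cftr, Ano1 and Atp1b1 held 6, 4 and 2 GC boxes. None of the 5 held TATAAA, the core of the TATA box (12.4% of all windows), or AGAACA, a half-site of the androgen response element (16.1%), on either strand with overlaps counted. These matches describe the letters of the windows and nothing more.

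Levels are given in CPM: the UMIs of a gene summed over the cells of a class, per 1000000 UMIs of that class. A gene counted as higher or lower between a pair of classes when the CPM ratio was at least 2 or at most 1/2, its interval left out 1, and the classes together held at least 20 UMIs. Sbp and Spink1 made up 45.8% of secretory UMIs in the ventral and 16.2% in the other library, and the median gene was itself shifted. Its proximal luminal over secretory ratio was 1.79 for the ventral and 1.13 for the proximal library, its basal over secretory ratio 1.85 and 1.13, and its basal over proximal luminal ratio 0.909 and 0.991. Each ratio below should be read beside these.

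**Figure D1:**
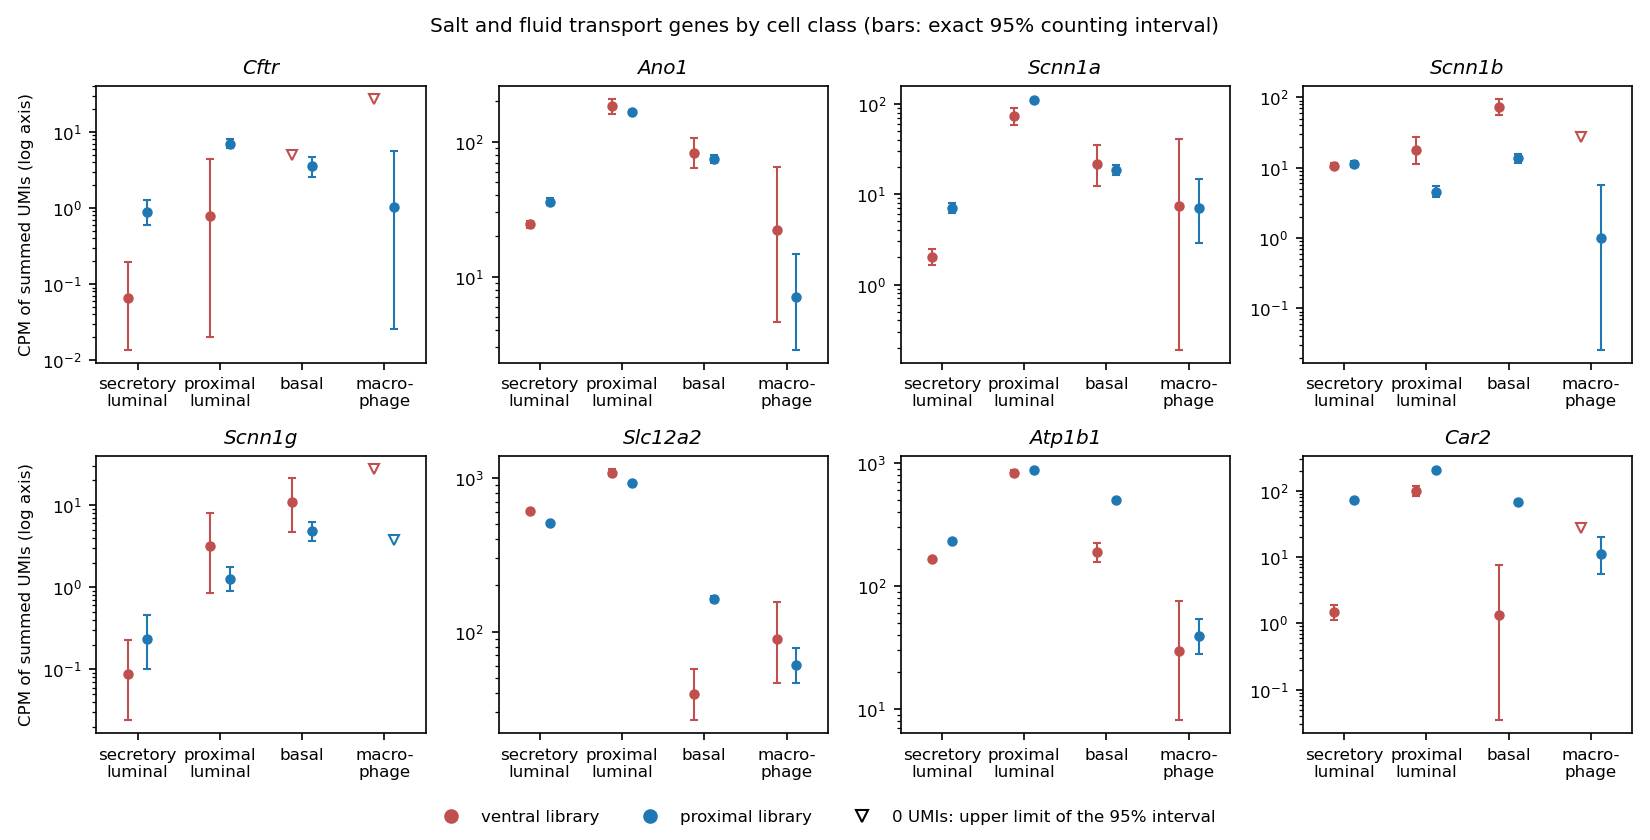
Level of each gene in CPM (log axis, 1 panel a gene with its own range) in secretory luminal-like, proximal luminal-like, basal-like and macrophage-like cells of the ventral (red) and proximal (blue) library. Points are levels from summed UMIs, bars are exact 95% counting intervals, and open triangles give the upper limit where no UMI was found; Ano1, Scnn1a, Slc12a2, Atp1b1 and Car2 were highest in proximal luminal cells in both libraries.

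Ano1, the calcium-activated chloride channel at chr7:144588549-144751974 on the minus strand, was highest in proximal luminal cells among the 3 epithelial classes of both libraries. Its ventral level was 24.4 CPM (23.0 to 25.9) in secretory, 184 (161 to 209) in proximal luminal and 83.1 (63.6 to 107) in basal cells. Its proximal levels were 35.9 (33.9 to 38.0), 167 (162 to 171) and 74.5 (69.8 to 79.5). The intervals of the 3 classes did not overlap in either library, and the order was the same in both. Proximal luminal cells held 7.53-fold (6.51 to 8.68) the secretory level in the ventral and 4.63-fold (4.35 to 4.94) that of the proximal library. Basal cells held 3.41-fold (2.59 to 4.41) and 2.07-fold (1.90 to 2.26) the secretory level, and both of these calls were among those lost when ratios were divided by that of the median gene, at 1.84 in each library. Fibroblast-like cells of the proximal library stood at 64.8 CPM, near the basal level, and macrophage-like cells at 7.11. The unnamed cluster, at 183 (175 to 191), was above the proximal luminal class. The interval of 6 smooth muscle-like cells, at 164 (81.9 to 294) from 11 UMIs, overlapped that of the proximal luminal class.

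Cftr, the cAMP-regulated chloride and bicarbonate channel at chr6:18170687-18322768 on the plus strand, was rare everywhere. The ventral library held 4 Cftr UMIs in 1988 cells: 3 in secretory cells, 1 in a proximal luminal cell and 0 in basal cells, where the interval reaches 5.03 CPM. The proximal library held 370 in 222 of its cells, of which 147 had 1 UMI and 5 had 6 or more. Its level there was 6.99 CPM (6.05 to 8.04) in proximal luminal, 3.51 (2.54 to 4.73) in basal and 0.879 (0.593 to 1.26) in secretory cells. The unnamed haemoglobin-led cluster reached 8.11 CPM (6.50 to 10.0), overlapping the proximal luminal interval. Macrophage-like cells had 1 UMI, or 1.02 CPM, and fibroblast-like cells 1.84 (0.882 to 3.38), which overlaps the basal interval.

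A single cell held most of the secretory Cftr. Of the 30 secretory UMIs in the proximal library, 21 lay in 1 cell of the Sbp-led cluster with 118029 UMIs in all, which also held 7 UMIs of Atp6v0a4, 2 of Atp6v0d2 and 1 of Atp6v1b1. These are proton pump genes known from ionocytes, rare epithelial cells that are rich in Cftr, but the cell held 0 UMIs of the ionocyte genes Ascl3 and Atp6v1g3. With that cell the proximal luminal level was 7.96-fold (5.40 to 12.1) the secretory level and the basal level 4.00-fold (2.45 to 6.60), and without it 26.4-fold and 13.3-fold. Only 2 of 3705 proximal cells, this cell among them, held at least 2 of the 5 ionocyte markers, and they carried 23 Cftr UMIs between them. Foxi1, the transcription factor that defines ionocytes, had 0 UMIs in all barcodes of both libraries. Whether the secretory cell is 1 cell or a droplet of several was not tested.

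The alpha subunit Scnn1a, which the sodium channel needs to reach the membrane, was highest in proximal luminal cells. The gene lies at chr6:125320659-125344943 on the plus strand. It stood at 2.02 CPM (1.63 to 2.48) in secretory, 73.0 (58.9 to 89.4) in proximal luminal and 21.8 (12.5 to 35.4) in basal cells of the ventral library. The levels in the proximal library were 7.03 (6.17 to 7.98), 111 (107 to 115) and 18.7 (16.4 to 21.3). The proximal luminal interval lay above the others in both libraries. Proximal luminal cells thus held 36.1-fold (26.8 to 48.7) and 15.8-fold (13.8 to 18.1) the secretory level. The secretory level in the proximal library did not differ from the 7.11 CPM (2.86 to 14.7) of macrophage-like cells beyond counting error, a value from 7 UMIs in 5 cells, while seminal vesicle-like cells had 0 UMIs and an upper limit of 3.88 CPM. Msmb-led secretory cells stood at 10.3 (8.45 to 12.3) and Tgm4-led ones at 4.94 (3.79 to 6.33), and the part of free RNA in these levels was not tested. The unnamed cluster stood at 70.6 (65.6 to 75.8), below the proximal luminal and above the basal class. After each cell was thinned to 1000 UMIs, a Scnn1a UMI was found in 10.6% (8.71 to 12.6) of proximal luminal, 1.98% of basal, 0.714% of secretory and 1.28% of macrophage-like cells of the proximal library. Before thinning the shares were 78.2%, 14.2%, 17.6% and 6.33%, at median depths of 19762, 12025, 47823 and 11922 UMIs.

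The beta subunit Scnn1b had another pattern: among the 3 classes, basal cells were high and proximal luminal cells of the proximal library were lowest. Ventral levels were 10.7 CPM (9.77 to 11.7) in secretory, 18.1 (11.4 to 27.1) in proximal luminal and 73.6 (55.3 to 96.0) in basal cells. Proximal levels were 11.4 (10.3 to 12.6), 4.56 (3.80 to 5.42) and 13.6 (11.6 to 15.8). The secretory and basal intervals overlapped in the proximal library and lay far apart in the ventral one. Basal cells held 4.08-fold (2.46 to 6.96) and 2.98-fold (2.35 to 3.78) the proximal luminal level, a call kept in each alternative that gave a value. Proximal luminal cells held 0.399-fold (0.324 to 0.488) the secretory level in the proximal library. In the ventral library the ratio was 1.69 (1.06 to 2.56), which is under the 1.79 of the median gene, so its direction turned with the scaling. Macrophage-like and fibroblast-like cells of the proximal library stood at 1.02 (0.0257 to 5.66) and 0.552 (0.114 to 1.61) CPM, of which the first interval reaches the proximal luminal level. The unnamed cluster stood at 1.59 (0.923 to 2.54), below the proximal luminal class.

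The gamma subunit Scnn1g was scarce and highest in basal cells. Its levels in the proximal library were 4.82 CPM (3.67 to 6.22) in basal, 1.27 (0.891 to 1.76) in proximal luminal and 0.234 (0.101 to 0.462) in secretory cells, from 59, 36 and 8 UMIs. Basal cells held 3.79-fold (2.46 to 5.91) the proximal luminal and 20.6-fold (9.78 to 49.8) the secretory level. The ventral library had 8 UMIs of it in basal, 4 in proximal luminal and 4 in secretory cells, or 10.9, 3.14 and 0.0879 CPM, too few for a call. Both Scnn1b and Scnn1g were thus higher in basal than proximal luminal cells of the proximal library, while Scnn1b alone was not higher in basal than secretory cells there, at 1.19-fold (0.984 to 1.43).

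The 3 subunits were seldom read in the same cell. All 3 were found in 9 of 998 proximal luminal, 2 of 911 basal and 2 of 706 secretory cells of the proximal library, and in 1, 0 and 0 cells of those classes in the ventral library. Of the 998 proximal luminal cells, 780 held Scnn1a, 99 Scnn1b and 32 Scnn1g, and 85 held both Scnn1a and Scnn1b. At these UMI counts a missing subunit in a cell is not a sign that the cell lacks it.

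Slc12a2, the basolateral cotransporter that loads cells with sodium, potassium and chloride, lies at chr18:57878678-57946821 on the plus strand and was lower in basal cells than in both luminal classes. It stood at 605 CPM (598 to 612) in secretory, 1080.2 (1024 to 1139) in proximal luminal and 39.5 (26.5 to 56.8) in basal cells of the ventral library. The proximal library gave 505 (498 to 513), 930.4 (919 to 942) and 163 (156 to 170). Basal cells held 0.0366-fold (0.0244 to 0.0528) and 0.175-fold (0.167 to 0.183) the proximal luminal level, and 0.0653-fold (0.0438 to 0.0939) and 0.322-fold (0.307 to 0.337) the secretory level. All 4 of these calls were kept in each alternative that gave a value. Macrophage-like cells stood at 89.3 CPM (46.1 to 156) in the ventral library, all 12 UMIs from 1 cell, and at 61.0 (46.5 to 78.5) in the proximal library, and fibroblast-like cells at 146 (136 to 157). The ventral basal interval overlaps the first and the proximal basal interval the last. The unnamed cluster stood at 1060.3 (1041 to 1080), above the proximal luminal class. The proximal luminal over secretory ratio was 1.79 (1.69 to 1.89) for the ventral and 1.84 (1.81 to 1.88) for the proximal library, short of the 2-fold rule in both.

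Atp1b1, a beta subunit of the sodium-potassium pump at chr1:164437109-164458355 on the minus strand, was highest in proximal luminal cells among the 3 classes. After thinning to 1000 UMIs a UMI was found in 14.9% of secretory, 58.0% of proximal luminal and 21.3% of basal cells of the ventral library, and in 23.0%, 54.5% and 35.7% of those of the proximal library. The unthinned shares were 92.8%, 98.9% and 55.6%, and 90.8%, 98.4% and 94.7%, with ventral basal cells shallowest at a median of 4961 UMIs. Ventral levels were 165 CPM (161 to 169) in secretory, 831 (782 to 883) in proximal luminal and 188 (158 to 222) in basal cells, and proximal levels 232 (227 to 238), 881 (871 to 892) and 498 (486 to 511). Proximal luminal cells held 5.03-fold (4.71 to 5.37) and 3.79-fold (3.70 to 3.89) the secretory level. Basal cells held 1.14-fold (0.955 to 1.35) the secretory level in the ventral library, within counting error of 1, and 2.14-fold (2.07 to 2.22) in the proximal library. The latter call was lost under the median-gene scaling, at 1.90. The unnamed cluster, at 947 (929 to 965), was above the proximal luminal class.

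Car2, the cytosolic carbonic anhydrase II at chr3:14886273-14900770 on the plus strand, differed widely between libraries. Ventral levels were 99.7 CPM (83.1 to 119) in proximal luminal, 1.47 (1.14 to 1.87) in secretory and 1.36 (0.0345 to 7.59) in basal cells, where 1 UMI was found. Proximal levels were 207 (202 to 212) in proximal luminal, 71.5 (68.7 to 74.4) in secretory and 68.5 (63.9 to 73.3) in basal cells. The secretory and basal intervals overlapped in both libraries. Proximal luminal cells held 67.7-fold (49.98 to 92.4) and 2.89-fold (2.76 to 3.04) the secretory level. The 26 seminal vesicle-like cells reached 298 CPM (264 to 334) and the unnamed cluster 289 (278 to 299), overlapping each other and above the proximal luminal class, the 27 T or NK-like cells stood at 121 (79.0 to 177), above the secretory and basal classes, endothelial-like cells at 58.2 (42.7 to 77.4), and fibroblast-like and macrophage-like cells at 11.8 and 11.2.

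**Figure D2:**
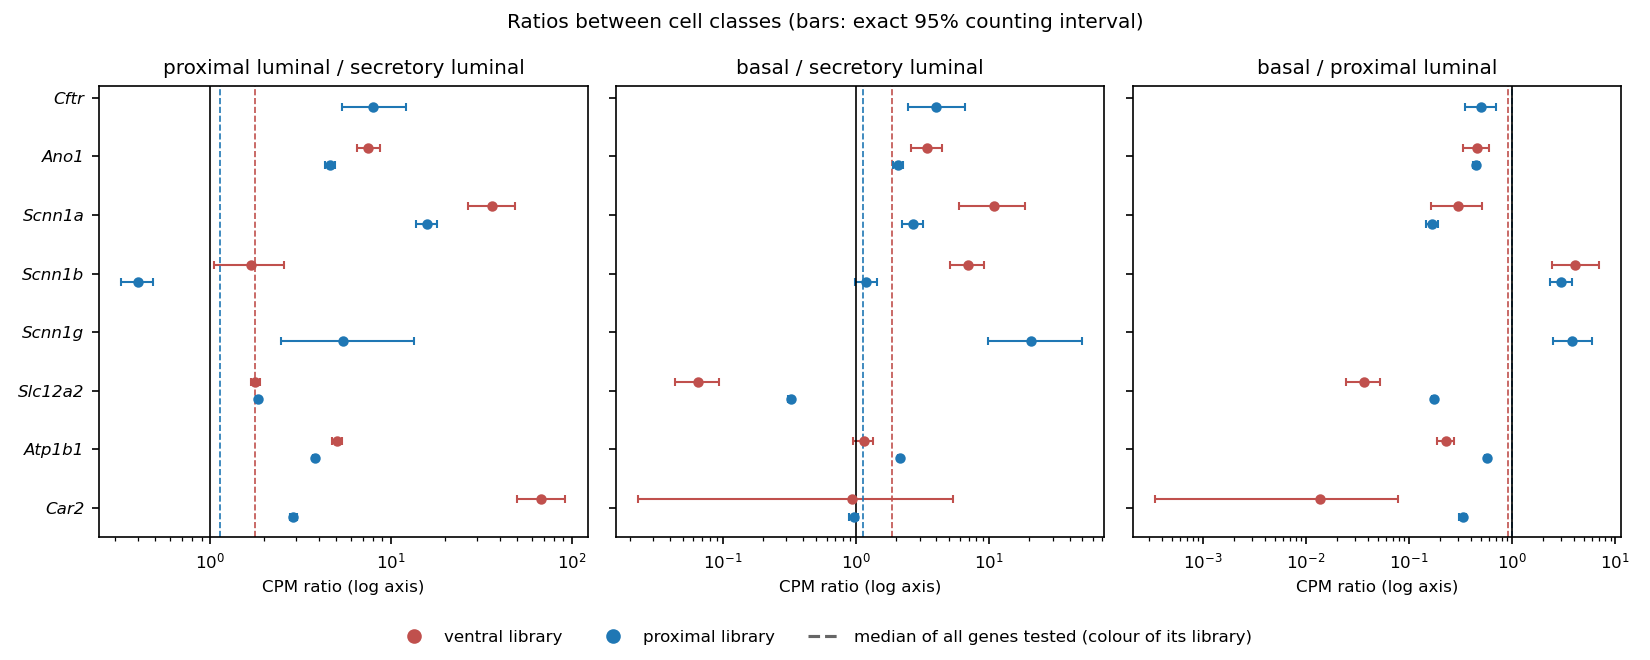
CPM ratios (log axis) of each gene between classes, proximal luminal over secretory luminal, basal over secretory luminal and basal over proximal luminal, in the ventral (red) and proximal (blue) library, for genes with at least 20 UMIs in the pair. Bars are exact 95% counting intervals, the black line marks a ratio of 1, and dashed lines mark the median of all genes tested (1.79 and 1.13 in the first panel); Scnn1b was the 1 gene called lower in the first panel, for the proximal library, and in the last panel Scnn1b in both libraries and Scnn1g in the proximal one were called higher.

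Of the 8 genes, 6 could be tested in each ventral comparison and 8 in each proximal one. Ano1, Atp1b1, Car2 and Scnn1a, 4 of 6, were higher in ventral proximal luminal than secretory cells and 0 lower, where 32.3% of all genes tested were higher and 1.05% lower. For the proximal library 6 of 8 were higher and 1, Scnn1b, lower, against 25.9% and 16.1% of all genes. The Scnn1g call among these was lost in 4 of 23 alternatives, with a ratio of 1.29 in place of 5.42 at a limit of 5% mitochondrial UMIs. The median ratio was 6.28 for the 6 ventral and 4.21 for the 8 proximal values, beside the 1.79 and 1.13 of all genes. Between basal and secretory cells 3 of 6 were higher and 1 lower in the ventral library (31.3% and 5.63% of all genes). In the proximal library 5 of 8 were higher and 1 lower (28.3% and 19.7%), and the number higher fell to 3 or 2 in some alternatives. Between basal and proximal luminal cells 1 of 6 was higher and 5 lower in the ventral library (12.4% and 19.2%), and 2 of 8 higher and 4 lower in the proximal library (13.3% and 12.3%). The ventral Ano1 call, at 0.453, was lost in 3 of 21 alternatives, with ratios from 0.515 to 0.593. The genes higher in basal cells here were Scnn1b in both libraries and Scnn1g in the proximal one.

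Some proximal luminal cells of the ventral library carried much secretory RNA, and 5 of the 8 genes, Scnn1a, Car2, Ano1, Atp1b1 and Slc12a2, had lower levels in them than in the rest. Sbp and Spink1 take up part of the UMIs of such cells, which by itself lowers the CPM of other genes. The share of all genes lower was not computed, so this count does not set the 5 apart from genes at large. In 28 of the 88 cells Sbp and Spink1 made up over 5% of UMIs, against 0 of 998 in the proximal library. In these 28 cells Scnn1a stood at 9.62 CPM (3.53 to 20.9) and Car2 at 3.20 (0.388 to 11.6), and in the other 60 at 134 (107 to 165) and 192 (160 to 229). Ano1 was 70.5 (51.2 to 94.7) against 292 (252 to 337), Atp1b1 438 (387 to 493) against 1210 (1126 to 1297), and Slc12a2 881 (809 to 958) against 1271 (1186 to 1361). Scnn1b did not differ beyond counting error, at 17.6 (8.80 to 31.5) against 18.5 (9.54 to 32.3). Without the 28 cells the ratios to secretory cells rose to 66.2-fold for Scnn1a, 131-fold for Car2, 12.0-fold for Ano1 and 7.32-fold for Atp1b1, and Slc12a2 to 2.10-fold (1.96 to 2.25). The median gene rose too, from 1.79 to 2.33, so Slc12a2, level with the median gene when the 28 cells were kept, was below it without them. Whether the 28 are doublets, mixed droplets or cells of a mixed state was not tested.

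**Figure D3:**
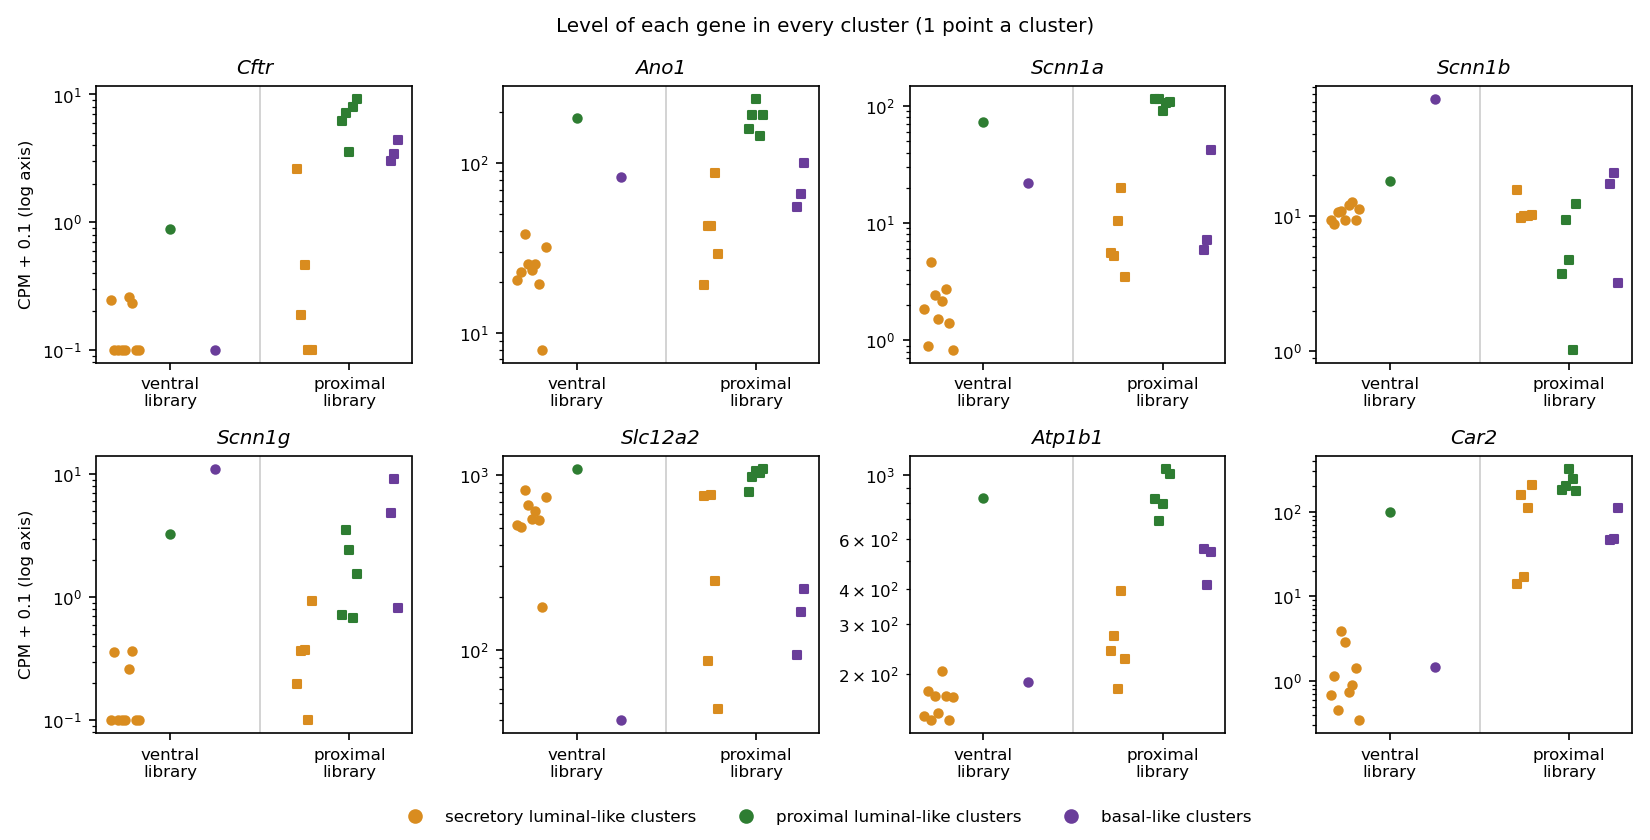
Level of each gene in every cluster (CPM plus 0.1 on a log axis, each panel with its own range), with circles for the ventral and squares for the proximal library, coloured by class. A point is 1 cluster; in the proximal library the secretory clusters spread from 46.0 to 772 CPM for Slc12a2 and from 13.9 to 204 for Car2, and 1 basal cluster stood apart for Scnn1a, Scnn1b and Scnn1g.

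The 5 proximal luminal clusters of the proximal library were close to each other for most of the genes. Scnn1a ranged from 91.0 to 116 CPM over them, Ano1 from 145 to 241, Slc12a2 from 804 to 1074, Atp1b1 from 693 to 1052 and Car2 from 177 to 319. Scnn1b spread more widely, from 0.925 to 12.1 CPM, as did Scnn1g, from 0.578 to 3.45, and Cftr ranged from 3.46 to 9.19. The lowest Scnn1b and Scnn1g levels were both in the cluster led by Krt23.

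Secretory cells of the proximal library fell into types that differed in Slc12a2 and Car2, a split noticed after the values were seen. A Sbp-led cluster of 159 cells and a Msmb-led cluster of 163 held 754 (737 to 771) and 772 (756 to 788) CPM of Slc12a2, and 2 clusters with Tgm4 among their leading genes, 328 cells, held 82.8 (77.9 to 88.0). The remaining 56 secretory cells lay between, at 249 (207 to 297) for Slc12a2 and 112 (84.3 to 145) for Car2. Over the 3 types Car2 ran the other way, at 13.9 (11.7 to 16.4), 17.0 (14.6 to 19.6) and 164 (157 to 171) CPM. Tgm4-led cells held 0.109-fold (0.102 to 0.116) the Slc12a2 and 10.6-fold (9.39 to 11.9) the Car2 of the others. The Tgm4-led level of Slc12a2 was also under the 163 CPM (156 to 170) of basal cells. Both Tgm4-led clusters shared the pattern, with 86.7 and 46.0 CPM of Slc12a2 and 160 and 204 of Car2. Within cells thinned to 1000 UMIs, Slc12a2 was found in 45.9%, 46.3% and 6.40% of the 3 types, against 5.13% of macrophage-like cells. Of the 7 genes tested 1 was higher and 2 lower in Tgm4-led cells (Cftr, through its single cell, was the other), beside 12% and 9.32% of all genes. The Car2 level of both lower types lay within the 5.58 to 20.0 CPM of macrophage-like cells. Against these types alone, the proximal luminal level was 1.22-fold (1.20 to 1.24) for Slc12a2 and 13.3-fold (11.9 to 14.9) for Car2.

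Basal cells of the proximal library held a cluster of 223 cells led by Grp, Ivl, Col17a1 and Aqp3, whose next best class was proximal luminal. Scnn1a stood at 42.1 CPM there and at 6.47 in the other basal clusters, a ratio of 6.51 (4.76 to 9.06), and Car2 at 110 against 46.9, a ratio of 2.34 (2.04 to 2.69). Scnn1b was 3.10 against 19.0 and Scnn1g 0.714 against 6.97, ratios of 0.163 (0.0847 to 0.286) and 0.103 (0.0205 to 0.315). Neither level in this cluster was above the 4.56 and 1.27 CPM of proximal luminal cells. The higher basal levels of Scnn1b and Scnn1g thus did not hold in it. Thus 2 of 8 genes were higher and 2 lower, beside 7.86% and 16.8% of all genes tested. The basal over secretory call of Scnn1a rested on this cluster: the ratio was 2.66 (2.21 to 3.20) with it and 0.920 without. In the ventral library 1 basal cluster was found and Scnn1a stood 10.8-fold (5.92 to 18.5) above secretory cells. Fibroblast markers summed to 5254 CPM in ventral and 1341 in proximal basal cells, with 1 of 6 found in at least 25% of cells. Basal markers summed to 4644 and 6780 CPM, so the fibroblast sum was the larger in ventral basal cells. Dcn, a fibroblast marker, was among the leading genes of the ventral basal cluster. The part of fibroblast RNA in the basal levels was not tested.

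In proximal luminal cells Car2 and Cftr were higher and Scnn1b lower in the proximal than the ventral library, 2 and 1 of 8, where 17.1% and 13% of all genes were. Car2 was 2.08-fold (1.74 to 2.49) and lost its call in 8 of 23 alternatives. Without the 28 cells rich in secretory RNA it was 1.08-fold (0.901 to 1.29). Cftr rested on 198 UMIs against 1, a ratio of 8.91 (1.58 to 354), which spanned 1 without those cells, at 4.55 (0.806 to 180). Scnn1b was 0.252-fold (0.161 to 0.412), and 0.247-fold without the 28 cells. Slc12a2, Atp1b1, Ano1 and Scnn1a lay between 0.861-fold and 1.52-fold, and Scnn1g at 0.405-fold (0.145 to 1.57). Without the 28 cells Scnn1a moved from 1.52-fold to 0.829-fold (0.670 to 1.04) and Ano1 from 0.907-fold to 0.570-fold (0.493 to 0.662), while the median gene moved from 0.981-fold to 0.727-fold. Scnn1g then counted as lower, at 0.207-fold (0.0741 to 0.799), from 36 UMIs against 4.

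In basal cells Slc12a2 was 4.11-fold (2.86 to 6.16), Atp1b1 2.65-fold (2.24 to 3.16) and Car2, from 838 UMIs against 1, 50.2-fold (8.99 to 1987) the ventral level, while Scnn1b was 0.184-fold (0.135 to 0.256). These are 3 higher and 1 lower of 8, beside 20.6% and 15% of all genes. In secretory cells Car2 was 48.6-fold (38.1 to 62.9), Cftr 13.3-fold (4.15 to 68.3) from 30 UMIs against 3, 21 of them in the 1 cell, and Scnn1a 3.48-fold (2.72 to 4.47) the ventral level, so 3 of 7 were higher and 0 lower beside 44.7% and 2.54%. Without that cell Cftr was 4.01-fold and held too few UMIs for a call. The median gene was 1.85-fold here, and 0.981-fold and 1.04-fold in the other classes. Over that median Scnn1a lost its call, at 1.88, and Slc12a2 counted as lower. The Sbp-led cluster over ventral secretory cells gave 9.46-fold (7.02 to 12.9) for Car2, 37.7-fold (11.5 to 195) for Cftr, with its single cell, 2.71-fold (1.90 to 3.82) for Scnn1a and 1.25-fold for Slc12a2, with 3 of 7 genes higher and 0 lower beside 14.6% and 2.5%. The Msmb-led clusters gave 48.1-fold (8.53 to 1911) for Car2 from 187 UMIs against 1, and 2.24-fold (1.26 to 4.33) for Scnn1a. Thus 2 of 6 were higher beside 28.3% and 0 lower beside 1.39%. The median gene of the Msmb-led comparison was 1.57-fold, which lies within the Scnn1a interval.

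Other genes of the same pathway were read from a list of 77 in 8 roles. In proximal luminal over secretory cells 26 of 43 tested were higher and 0 lower in the ventral library, and 34 of 60 higher and 9 lower in the proximal one, beside 32.3% and 1.05%, and 25.9% and 16.1%, of all genes. Their median log2 ratio was 1.30 and 1.08, beside 0.84 and 0.18 for all genes. Potassium channels, which set the voltage that drives chloride out, were higher in 4 of 5 and 5 of 8, carbonic anhydrases in 1 of 1 and 3 of 3, and aquaporins in 2 of 2 and 4 of 5, the fifth being lower. Chloride and bicarbonate channels and exchangers were higher in 5 of 11 in the ventral library, while 7 of 13 were higher and 3 lower in the other. Sodium-proton exchangers and their scaffold were higher in 3 of 4, and 1 of 4 higher with 1 lower. Cation-chloride cotransporters and their kinases were higher in 3 of 7, and 6 of 8 higher with 1 lower, and sodium channel proteases and regulators were higher in 5 of 8 and 3 of 8. Pumps and their subunits were higher in 3 of 5 in the ventral library, while 5 of 11 were higher and 3 lower in the proximal one.

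The named genes of that comparison were led by Clca1, a secreted regulator of calcium-activated chloride channels. It had 30 UMIs, or 23.6 CPM, in ventral proximal luminal cells and 0 in secretory cells, at least 357-fold higher when the 0 is set to 3 UMIs over the class. The counting interval of this ratio starts lower, at 273-fold. Its proximal levels were 98.2 against 1.58 CPM, 62.0-fold (47.4 to 82.8). The potassium channel Kcnq1 was 37.2-fold (24.6 to 56.2) for the ventral and 16.4-fold (13.9 to 19.4) for the proximal library. Kcnn4, a calcium-activated potassium channel, stood at 177 against 7.05 CPM in the ventral library, 25.2-fold (21.1 to 29.9). Car12, a membrane-bound carbonic anhydrase, was 30.8-fold (17.3 to 54.5) there and the potassium channel Kcnk5 25.3-fold (16.9 to 37.5). Among proximal cells Fxyd4, a small regulator of the sodium-potassium pump, was 22.5-fold (18.6 to 27.3), Car13 21.3-fold (14.3 to 32.9) and Kcne3, a potassium channel subunit, 12.6-fold (8.22 to 20.3).

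Genes lower in proximal luminal than secretory cells, all in the proximal library, included exchangers and a proton pump. Atp12a, the non-gastric proton-potassium pump, stood at 1.09 against 47.0 CPM, a ratio of 0.0233 (0.0158 to 0.0332). The sodium-proton exchanger Slc9a2 was 3.04 against 36.8 CPM and the anion exchanger Slc26a3 1.20 against 14.04, ratios of 0.0825 and 0.0856. Aqp8 and Slc26a6 were lower from 45 and 43 secretory UMIs against 3 and 3.

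**Figure D4:**
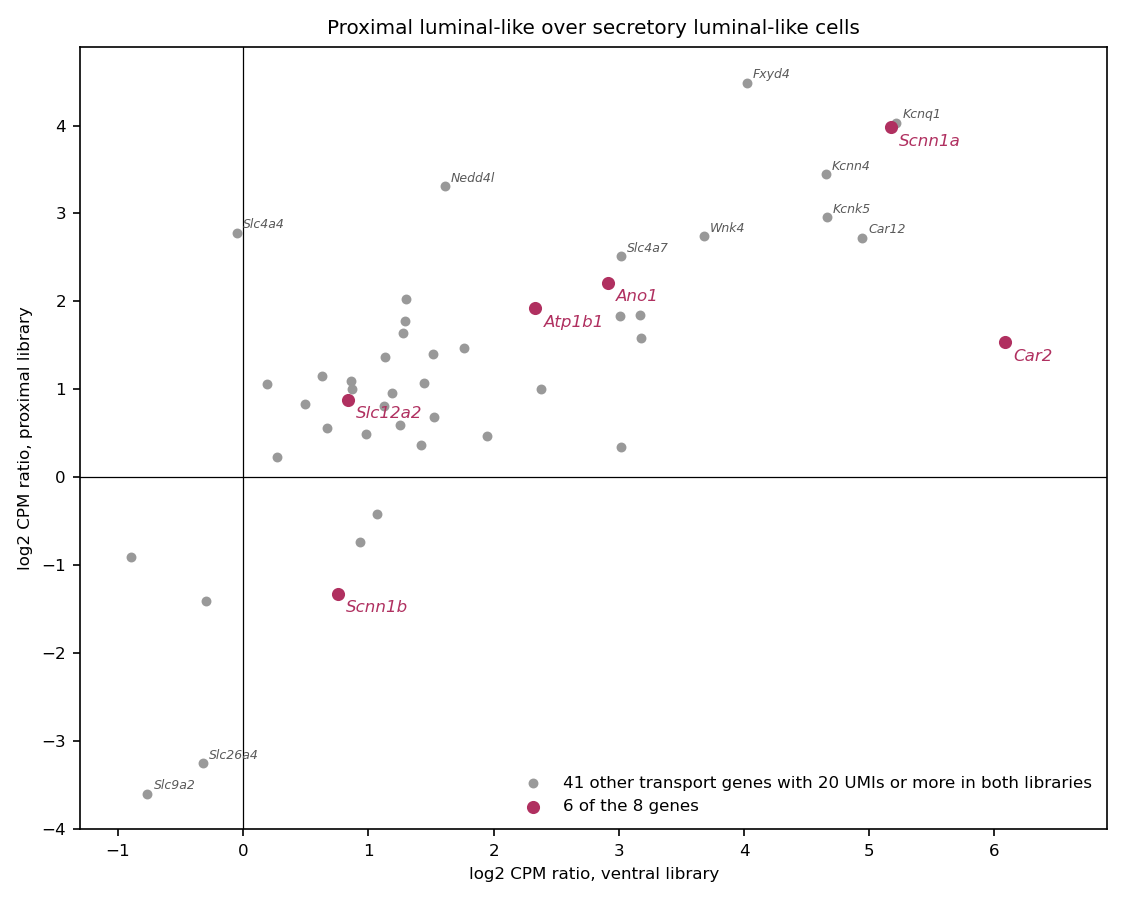
Log2 CPM ratio of proximal luminal-like over secretory luminal-like cells in the ventral (x axis) and proximal (y axis) library. Red points are the 6 of the 8 genes and grey points the 41 other transport genes with at least 20 UMIs in both libraries and no count of 0; Scnn1a, Kcnq1, Kcnn4, Kcnk5, Car12 and Fxyd4 were at least 6.61-fold higher in both, and Scnn1b was on opposite sides of 0.

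In basal over secretory cells 11 of 43 listed genes were higher and 8 lower in the ventral library, and 29 of 61 higher and 15 lower in the proximal one. Of all genes 31.3% and 5.63%, and 28.3% and 19.7%, were, so the ventral share higher, 25.6%, was below that of all genes. Fxyd4 was 62.0-fold (32.7 to 117) and 36.8-fold (30.5 to 44.8), and Car12 51.3-fold (28.6 to 91.3) in the ventral library. Atp1b3, a further pump beta subunit, stood at 292 against 29.2 CPM in the ventral library, 10.0-fold (8.61 to 11.6). Aqp3, a water and glycerol channel, led in the proximal library at 79.7 against 0.733 CPM, 109-fold (73.3 to 169). It was followed by Car9 at 42.4-fold (17.4 to 134) and Car13 at 31.2-fold. Clca2, with 33 UMIs against 0, was at least 30.7-fold higher by the same floor, and its counting interval starts at 23.6-fold. Slc9a2, the chloride-bicarbonate exchanger Slc26a4 and, in the ventral library, the sodium-bicarbonate cotransporter Slc4a4 were lower, at 0.0385-fold, 0.0686-fold and 0.0619-fold in the ventral library. Slc4a4 was higher in basal cells of the proximal library, at 3.39-fold (3.01 to 3.83). Prss8, a protease that activates the sodium channel, was 0.158-fold (0.0579 to 0.345) in ventral basal cells, from 6 UMIs against 2354.

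Against proximal luminal cells, basal cells were higher for 3 and lower for 17 of 34 listed genes in the ventral library, and higher for 11 and lower for 17 of 59 in the proximal one, beside 12.4% and 19.2%, and 13.3% and 12.3%, of all genes. Atp1b3 was 5.46-fold (4.14 to 7.29) in the ventral library, where Atp1b1 was 0.226-fold (0.188 to 0.270). The water channel Aqp5 was 0.0278-fold and 0.0343-fold (0.0246 to 0.0467), Kcnq1 0.0340-fold in the ventral library, and Clca1 0.0474-fold (0.0358 to 0.0617) in the proximal library. Aqp3 was 13.4-fold (11.3 to 15.8) and Clca3a1 13.2-fold (5.86 to 35.0) in the proximal library. Of the 8 sodium channel proteases and regulators, 6 and 8 of which could be tested, Furin was higher and Prss8 and Nr3c2, the mineralocorticoid receptor, were lower in basal cells in both libraries.

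Likeness was measured over the 13 clusters of the 3 classes in the proximal library, as Pearson r of log2(CPM + 10), given as a description of points that share a library and differ in depth. Scnn1a and Ano1 followed each other at r = 0.93, with 0.93 over 11 ventral clusters, and Atp1b1 and Ano1 at 0.89 and 0.83. Of the 11 ventral clusters 1 was proximal luminal, 1 basal and 9 secretory, and Scnn1a lay between 0.727 and 4.59 CPM in the secretory ones. A ventral r can thus rest largely on the single proximal luminal and basal clusters and restate the differences between classes. Scnn1b ran against Scnn1a at -0.65 but not in the ventral library, at 0.57. Scnn1b and Scnn1g stood at 0.52 and, from 16 Scnn1g UMIs, 0.98. Slc12a2 and Car2 had an r of 0.08 and 0.31. The genes nearest to Scnn1a were Wwc1, Dapp1 and 2700054A10Rik (0.98, 0.98 and 0.97), to Ano1 Eps8l1, Styk1 and Pfkl (0.96, 0.95 and 0.95), and to Slc12a2 Slc22a18, Cln3 and Man2b2 (0.94, 0.93 and 0.92). Nearest to Atp1b1 were Gde1, Degs1 and Samd9l (0.96, 0.96 and 0.96), to Car2 Arpc4, Mvp and Cd24a (0.93, 0.92 and 0.91), to Scnn1b Gstt1, Mpp1 and Caml (0.86, 0.86 and 0.82), to Scnn1g Cemip, Fzd2 and Dll1 (0.95, 0.94 and 0.94), and to Cftr Slc25a21, Flacc1 and Mfsd4a (0.96, 0.94 and 0.93). In the ventral clusters these neighbours had an r between 0.13, for Slc25a21 and Cftr, and 0.94, for Fzd2 and Scnn1g. Several of these values rest on few ventral UMIs: 4 for Cftr and 16 for Scnn1g, and 12 for Styk1, 18 for Samd9l and 20 for Flacc1.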

How the data were processed

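Single cells of 1 ventral and 1 proximal library were analysed. The deposited files hold UMI counts per gene and barcode, made by the authors with Cell Ranger 7.0.0 on mm10, per the submitters' processing notes; the annotation release is not given in the sources used here. They held 49356586 UMIs in 2221 barcodes and 97817603 in 4344. Cells with at least 500 genes and at most 10% mitochondrial UMIs were kept. Scrublet called 11 of 5704 cells (0.193%), too few to have worked, so doublets largely remain.

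Each library was clustered with scanpy 1.11.5 (2000 variable genes without the 8 genes and the transport list, 30 components, 15 neighbours, Leiden resolution 1, seed 0). A cluster was named from at least 3 markers, each in at least 25% of its cells, unless its 10 leading genes spoke for another type; this ranking, the secretory types and the basal split were chosen after seeing the clusters. The 8 genes and the lists were chosen with earlier results of these data known.

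CPM intervals are exact Poisson, shares Clopper-Pearson and ratios exact given the summed count (scipy 1.17.1), at 95%, for counting error only; a count of 0 enters a ratio as 3 UMIs. With 1 library per group no test across samples was possible. Named were all 8 genes, up to 5 list genes in each direction per comparison of classes, the 3 genes most like each of the 8 (from at least 200 UMIs), and the ionocyte markers; 1 list gene named by this rule is not reported here. Simulated 4-fold and 8-fold changes in 200 of 32285 genes were all recovered (100%) for both libraries, and between 1.10% and 2.11% of unchanged genes were called. The changed genes were drawn from well-counted ones and only counting error was simulated. The simulation therefore says nothing of scarce genes such as Cftr and Scnn1g, or of variation between cells, doublets and free RNA. The alternatives tried were 18 planned and 5 chosen after seeing the data.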

Additional observations from a re-analysis of the deposited data

Results flagged for a closer look

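Scnn1b moved opposite ways in the libraries: its level in proximal luminal over secretory luminal cells was 1.6871 for the ventral and 0.3987 for the proximal library. The difference between these ratios was not tested, since each library is 1 sample. The ventral ratio rests on 23 proximal luminal UMIs and is below the 1.79 of the median gene, which lies within its counting interval of 1.06 to 2.56, so the opposite direction is not kept when ratios are divided by that of the median gene.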

How the results depend on the processing

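The 43 called ratios of the 8 genes were recomputed under 23 alternatives, 5 of them chosen after seeing the data. Of 961 values, 923 kept their call, 38 lost it and 3 of those turned direction. The log2 ratio of Scnn1a in basal over secretory cells of the proximal library became -0.13 with both libraries clustered together and -0.12 without the basal cluster closest to proximal luminal cells, and that of Car2 in proximal luminal cells between libraries became -0.079 with each cell named by its own markers; the cause was not tested.

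In proximal luminal cells, the number of genes higher in the proximal than the ventral library fell from 2 to 1 in several alternatives. These were 5% or 20% mitochondrial limits, resolution 0.5, 3000 variable genes, joint clustering, the 20 most abundant genes left out of totals, and mean per-cell CPM. That number fell to 0 with cells named singly or cells rich in Sbp and Spink1 left out, where the number lower rose from 1 to 3 and to 2. With mean per-cell CPM the number lower rose to 2. The number higher in basal than secretory cells of the proximal library fell from 5 to 3 with joint clustering, cells named singly, the 20 genes left out, median-gene scaling or the basal cluster left out, and to 2 with mean per-cell CPM. The number lower in proximal luminal than secretory cells of that library fell from 1 to 0 at resolution 0.5. Between libraries, the number lower in secretory cells rose from 0 to 1 under median-gene scaling, and that in basal cells from 1 to 2 with cells named singly or the basal cluster left out.

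Ventral basal cells gave no value with joint clustering or with leading genes ranked without a pseudocount. No paired analysis was possible because each group is 1 library. Scnn1g and Cftr are limited by their low counts, with 16 and 4 UMIs in the ventral library.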
